A study of Mus musculus with 6 samples.

Results

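Integrins are paired receptors, 1 alpha and 1 beta chain, that hold cells to the extracellular matrix or to other cells. The set described here is 35 mouse genes: 26 integrin chains and 9 genes of the focal adhesion core, the proteins that couple integrins to actin. They were taken by gene symbol from the deposited comparison table and joined by gene identifier to the count files, 35 of 39179 gene identifiers in all, and each of the 35 symbols was found once. All 35 were counted highly enough to be tested, so none was lost to the filter on low counts.

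The samples were 6 RNA-seq libraries of tumour grafts of the MMTV-Neu model, in which the mouse mammary tumour virus promoter drives the Neu (ErbB2) oncogene in mammary epithelium, on the FVB strain. The genotype was wild type (WT, 3 libraries) or knockout for the receptor tyrosine kinase AXL (AXL KO, 3 libraries), and all 6 share the Neu transgene, the strain and the graft as tissue. The question is how the transcripts of these genes differ with the loss of AXL. Age, the tumour or isolate grafted, the number of animals and whether the genotype is that of the graft, the host or both are not given in the labels. The p-values therefore measure only how these samples scatter, which may be technical scatter, and an effect of the tumour grafted and one of the genotype cannot be told apart. A graft holds tumour, stroma, vessels and leukocytes together, so fewer cells of a type and less RNA per cell cannot be told apart either.

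Libraries held 26541009 to 32491807 counts in genes. Axl, the targeted gene, had counts of 1906, 1761 and 1507 in the WT libraries and 1360, 2396 and 1767 in the AXL KO libraries, which overlap. These counts cover the whole gene and the deleted part is not given, so Axl does not check the labels, and directions below are between libraries as labelled. The luminal keratin gene Krt18 was at a mean of 1168 CPM (the usual library-size-scaled count, with TMM factors) in WT. The basal keratin genes Krt5 and Krt14 had 3 counts or fewer in every library. Of 7 luminal markers 6 and of 6 basal markers 3 were counted highly enough to be tested. The luminal keratin gene Krt19 had 8 counts or fewer in every library, whereas Acta2, listed under both basal and smooth muscle markers, had 765 to 3018. Of 14850 genes tested, 37.4% were called at an adjusted p under 0.05 (edgeR quasi-likelihood test, Benjamini-Hochberg adjustment over all genes), 19.1% higher and 18.3% lower in AXL KO. The groups of libraries did not overlap in 52.1% of the tested genes, with AXL KO above in 26.9% and below in 25.2%.

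Each integrin works as a pair, and the beta chain limits the partners. ITGB1 pairs with many alpha chains and ITGAV with several beta chains, whereas ITGA6 with ITGB4 forms the laminin receptor of hemidesmosomes and ITGB2 is found on leukocytes. Talin and kindlin proteins bind the beta chain's tail and switch the receptor on, after which the kinases FAK and ILK and the adaptors paxillin and vinculin gather at the adhesion. For description the 26 chains were placed by textbook expression into 6 epithelial, 9 vascular and stromal, 8 leukocyte and 3 widely expressed genes. These classes were not computed from the counts, but they were chosen with earlier results of these data known. Single chains also occur in other cells.

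Promoter sequence is shown for 3 leukocyte integrin genes, because several of that class rose together and because the ETS factor PU.1, found in myeloid and lymphoid cells, is known to act at the Itgam promoter. RefSeq windows of GRCm38.p6, kept from 250 bases before to 30 after the transcript start, were found for 24 of the 35 genes. The letters GAGGAA, a core of PU.1 sites, were searched on both strands and are in capitals below, and overlap with other motifs was not considered. Itgam lies at chr7:128062390-128062669 on the plus strand, Itgax at chr7:128129300-128129579 on the plus strand and Itgb7 at chr15:102231906-102232185 on the minus strand.
Itgam: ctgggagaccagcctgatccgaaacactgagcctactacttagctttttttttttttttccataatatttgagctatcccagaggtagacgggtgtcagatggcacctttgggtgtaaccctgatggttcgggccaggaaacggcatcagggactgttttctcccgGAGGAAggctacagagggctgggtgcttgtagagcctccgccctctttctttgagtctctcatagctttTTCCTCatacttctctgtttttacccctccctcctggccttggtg
Itgax: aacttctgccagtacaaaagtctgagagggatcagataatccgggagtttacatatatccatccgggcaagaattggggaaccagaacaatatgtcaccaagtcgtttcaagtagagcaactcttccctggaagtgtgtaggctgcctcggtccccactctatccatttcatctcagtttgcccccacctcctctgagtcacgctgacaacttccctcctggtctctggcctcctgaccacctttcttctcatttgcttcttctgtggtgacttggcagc
Itgb7: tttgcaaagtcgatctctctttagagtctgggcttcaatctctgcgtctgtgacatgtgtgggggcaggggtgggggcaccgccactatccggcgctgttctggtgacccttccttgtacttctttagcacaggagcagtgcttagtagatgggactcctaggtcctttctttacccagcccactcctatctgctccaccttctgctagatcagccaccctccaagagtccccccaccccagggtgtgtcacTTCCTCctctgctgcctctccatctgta
The window of Itgam held 2 matches, that of Itgb7 held 1 and that of Itgax held 0. Among the 4 leukocyte integrin genes with a window 2 had a match, Itga4 being the other without one, against 10 of all 24 genes. A gene was counted if any of its windows matched. Of the 32851 windows in RefSeq 26.0% had a match, a share of windows and not of genes. Counts of Itgax and Itgb7 differed between the groups and those of Itgam did not pass the test, as given below, so calls and matches did not go together in these 3 genes. A match is only a description of the letters.

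Levels per exon length spanned the whole set from the beta chain shared by most matrix receptors down to a rare leukocyte chain. In WT, Itgb1 stood first at 166 CPM per kb of exon, followed by the kindlin gene Fermt2 at 97.5, Itgb5 at 56.9 and the laminin receptor chain Itga6 at 53.6 CPM per kb. Itga8, an alpha chain of smooth muscle and mesenchymal cells that binds nephronectin and fibronectin, reached 26.3 CPM per kb, close to the 24.3 of Itgb4. The leukocyte chains lay far lower in WT, from 6.28 CPM per kb for Itgb2 down to 0.0837 for Itgad, which had 3 to 26 counts in a library. Chains of other classes lay in that range too, such as Itga5 at 5.62, Itga1 at 2.80 and Itgb6 at 1.28 CPM per kb. The collagen receptor chain Itga10, with 31 to 38 counts, and Itga2 were also low, at 0.245 and 0.333 CPM per kb. In the AXL KO libraries Itgae moved from 0.288 to 2.90 CPM per kb and Fermt1 from 4.18 to 9.87. Exon lengths come from the GENCODE M21 models, which may be longer than the transcripts present.

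**Figure D1:**
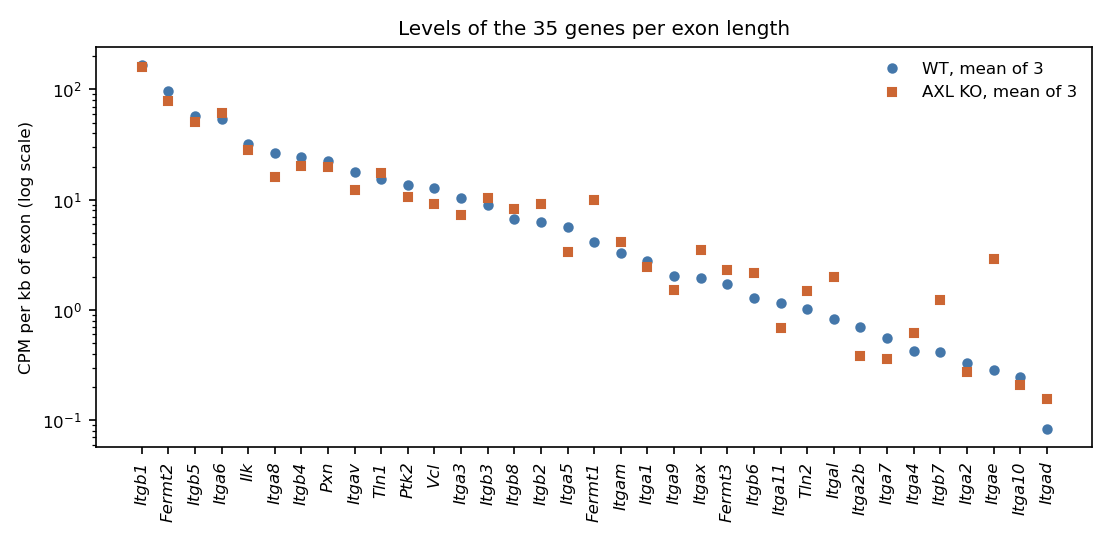
Mean level of each of the 35 genes in WT (circles) and AXL KO (squares) grafts, in CPM per kb of exon on a log axis, ordered by the WT level. Itgb1 is highest at 166 and Itgad lowest at 0.0837 in WT, and Itgae shows the widest gap between the groups.

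In AXL KO, 9 of the 35 genes had higher and 8 had lower transcript levels, 48.6% in all against the 37.4% of all tested genes. The groups of libraries did not overlap for 22 of them, 11 in each direction, against 52.1% of all genes (26.9% above and 25.2% below). The median log2 fold change of the set was -0.16, beside 0.00 for all genes, and it shrank to -0.075 without WT replicate 2, -0.080 without AXL KO replicate 1 and -0.069 under a stricter filter (mean log2 CPM of at least 2). Of all tested genes 19.1% were called higher and 18.3% lower. By class, 5 of 8 leukocyte genes rose and 3 of 9 vascular and stromal genes fell. The 6 epithelial genes went both ways with 2 higher and 1 lower. Of the 9 genes of the focal adhesion core 2 rose and 3 fell, and of the widely expressed chains 1 of 3 fell. Medians were 0.86, -0.61, -0.05, -0.17 and -0.16 in that order. In the direction opposite to their calls, leukocyte and vascular and stromal genes had 0 calls in edgeR, 0 at an unadjusted p under 0.05 and 0 in DESeq2. These counts describe the classes, and no test of a class was made. Of the 35 genes only 4 were called at 2-fold or more, which were Itgae, Itgb7, Itgal and Fermt1, all higher in AXL KO. Of all tested genes 9.97% were called at that size, 5.14% higher and 4.82% lower.

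**Figure D2:**
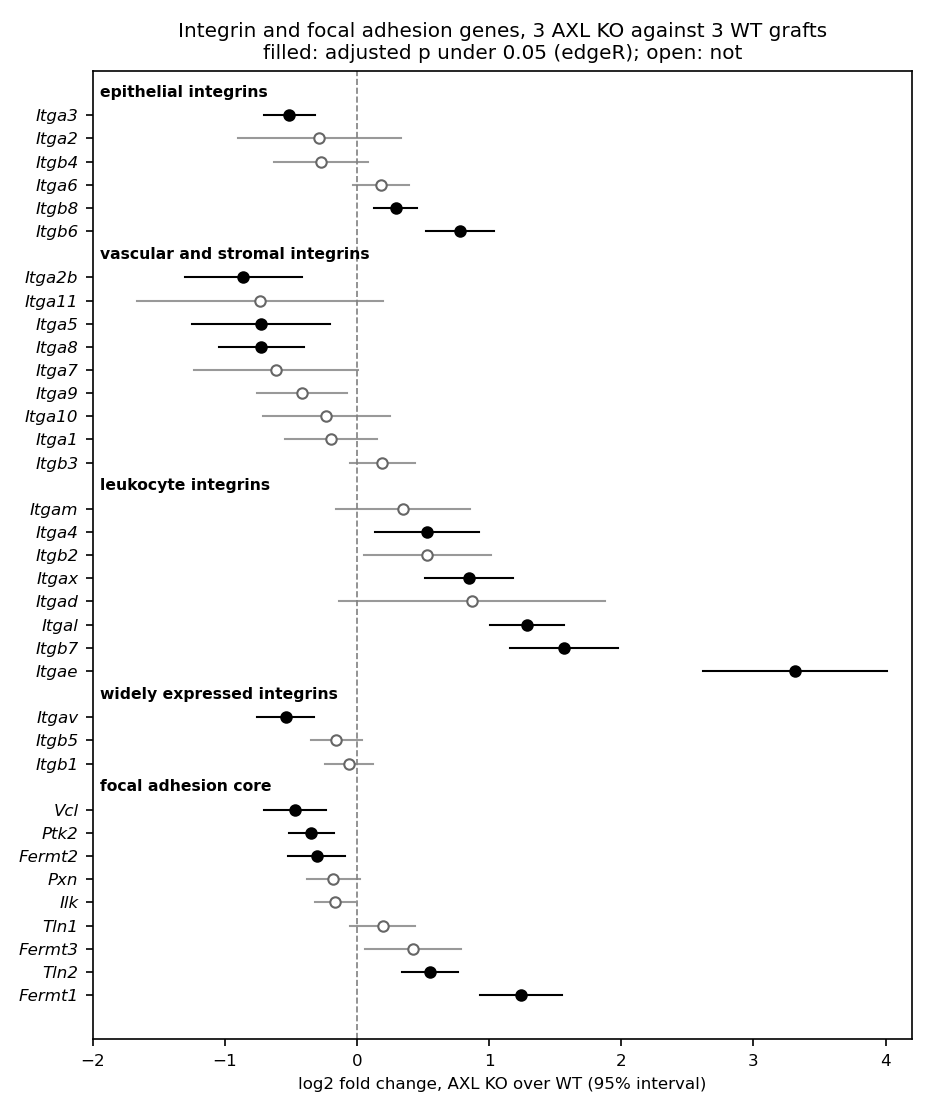
Log2 fold change of AXL KO over WT with its 95% interval for each gene, by class; filled points passed an adjusted p of 0.05 (edgeR) and open points did not. Leukocyte chains lie to the right of 0, with Itgae at 3.31, and 8 of 9 vascular and stromal chains lie to the left.

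Of the 8 leukocyte integrin chains 5 were higher in the AXL KO libraries (Itgae, Itgb7, Itgal, Itgax and Itga4), and Itgam, Itgb2 and Itgad did not pass the test. Itgae (ENSMUSG00000005947, GRCm38 chromosome 11, 73090583 to 73147446) encodes CD103, which pairs with ITGB7, binds E-cadherin on epithelial cells and marks tissue-resident T cells and cross-presenting dendritic cells. It was at 0.847, 2.06 and 1.05 CPM in the WT libraries and at 13.6, 10.2 and 16.1 CPM in the AXL KO libraries. Every AXL KO library lay above every WT library by a wide margin. The rise was 9.95-fold, a log2 fold change of 3.31 ± 0.31 (SE), with an edgeR adjusted p of 0.000105. Its partner gene Itgb7 (ENSMUSG00000001281, chromosome 15, 102215995 to 102231944) was at 1.25, 1.13 and 1.08 CPM in WT and at 3.33, 3.28 and 3.68 CPM in AXL KO. The groups lay well apart for Itgb7 too, with a 2.97-fold rise (log2 fold change 1.57 ± 0.18 SE, edgeR adjusted p = 0.000336).

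Itgal encodes the alpha chain of LFA-1, the receptor by which lymphocytes bind ICAM proteins. It was at 5.45, 5.95 and 4.85 CPM in WT and at 13.2, 12.7 and 13.7 CPM in AXL KO, with little spread in either group. The gene, ENSMUSG00000030830 on chromosome 7 from 127296260 to 127335138, rose 2.43-fold (log2 fold change 1.28 ± 0.12 SE, edgeR adjusted p = 0.000126). Itgax, which encodes CD11c of dendritic cells and some macrophages, was at 8.47, 10.2 and 9.24 CPM in WT and at 16.0, 19.99 and 14.3 CPM in AXL KO. It rose 1.799-fold, with an edgeR adjusted p of 0.0025 and no overlap of the groups. The 4 calls of Itgae, Itgb7, Itgal and Itgax were kept with each library left out.

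Itga4, the alpha chain of VLA-4 that binds VCAM1 and fibronectin, was at 6.22, 6.21 and 5.48 CPM in WT and at 7.15, 10.8 and 7.85 CPM in AXL KO. Its rise of 1.44-fold passed narrowly (edgeR adjusted p = 0.041). The call ended without any 1 of the WT libraries (log2 fold changes of 0.56, 0.56 and 0.47 without replicates 1, 2 and 3). It also ended when AXL KO replicate 2 (0.33) or AXL KO replicate 3 (0.60) was left out, with edgeR adjusted p-values of 0.0601 to 0.128. Of the exons of Itga4, 8.04% overlap Cerkl on the other strand.

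Itgam, Itgb2 and Itgad did not pass the test, and for Itgam and Itgb2 1 library stood apart. Itgam, which encodes CD11b of macrophages, neutrophils and NK cells, was at 17.0, 16.0 and 16.1 CPM in WT and at 17.3, 29.9 and 15.2 CPM in AXL KO. Only AXL KO replicate 2 was above the WT range by more than a little, and the log2 fold change of 0.35 had a 95% interval from -0.16 to 0.85. Without that library it was -0.01. Itgb2, the beta chain shared by Itgal, Itgam, Itgax and Itgad, was at 21.8, 19.1 and 16.6 CPM in WT and at 23.2, 38.3 and 21.5 CPM in AXL KO, again highest in AXL KO replicate 2, and the groups overlapped. Its log2 fold change was 0.53 (95% interval from 0.05 to 1.01, edgeR adjusted p = 0.0777), and without AXL KO replicate 3 it was 0.69 with an adjusted p of 0.0414. With each library left out in turn it ranged from 0.22 to 0.69, at edgeR adjusted p-values of 0.0414 to 0.222. DESeq2 gave an adjusted p of 0.0362 for Itgb2. Itgad, a near relative of Itgam and Itgax in the same stretch of chromosome 7, was too low for a firm statement, at 0.110, 0.499 and 0.523 CPM in WT and 0.744, 0.803 and 0.558 CPM in AXL KO. Multiply aligned reads are not in these counts, and whether the likeness of these 3 alpha chains affects their counts was not tested.

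**Figure D3:**
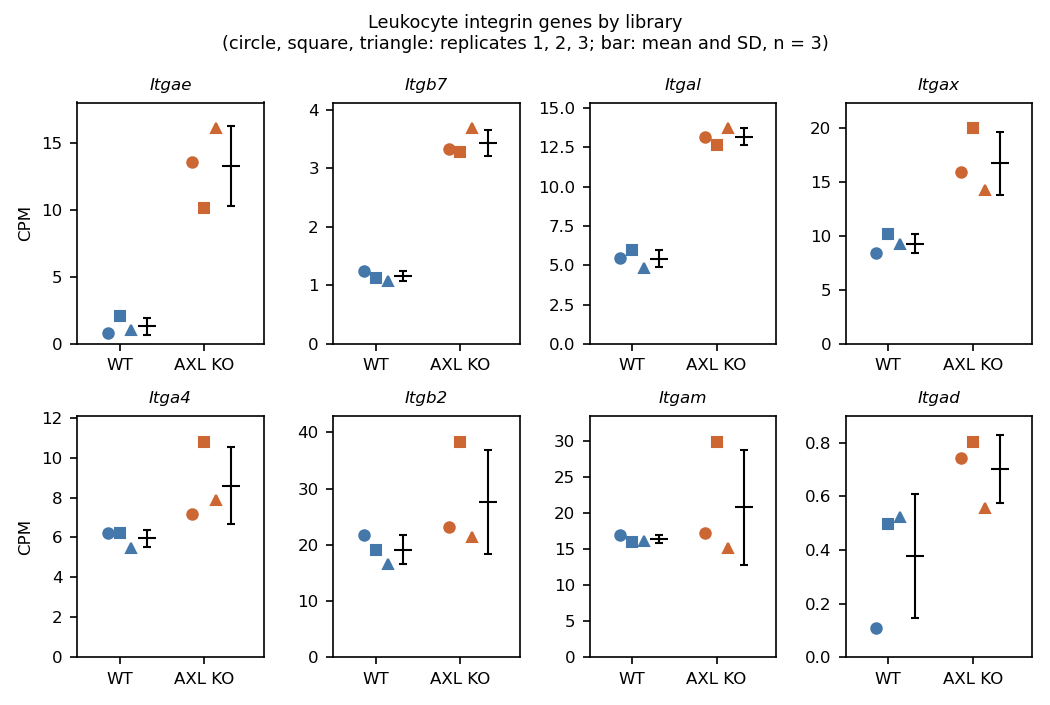
Level of the 8 leukocyte integrin genes in each library, in CPM from 0, for WT and AXL KO grafts; symbols are replicates 1 to 3 and the bar gives the mean and SD. Itgae, Itgb7, Itgal and Itgax separate the groups, whereas Itgam and Itgb2 are high in AXL KO replicate 2.

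Most markers of T, NK and dendritic cells were called higher, whereas most macrophage and neutrophil markers did not pass, beside 19.1% of all tested genes called higher and 18.3% lower. The general leukocyte gene Ptprc (CD45) had a log2 fold change of 0.90 and Coro1a one of 0.68, 2 of 4 such markers called higher, and the summed level of the 4 was 115 to 131 CPM in WT and 146 to 194 in AXL KO. Of 8 T cell markers 7 were called higher (sum 8.47 to 12.2 CPM against 22.6 to 24.6), of 6 NK markers all 6 (1.69 to 3.95 against 25.9 to 35.5) and of 6 dendritic cell markers 4 (7.51 to 7.78 against 11.8 to 12.4). Of 8 macrophage markers 1 was higher, with sums of 371 to 497 CPM in WT and 384 to 518 in AXL KO. Of 4 tested neutrophil markers 1 was lower, at sums of 3.89 to 9.17 CPM in WT and 4.63 to 7.79 CPM in AXL KO, and the neutrophil marker Ly6g had 1 count or none in every library. The part of these cells in the integrin results was not tested.

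Ligands of the leukocyte integrins on other cells were mixed. Of 7 tested genes 3 passed, 1 higher and 2 lower, which is 42.9% against 37.4% of all genes. Icam1, bound by LFA-1, rose from 6.19 ± 0.561 to 8.81 ± 0.441 CPM (SD, n = 3 per group; edgeR adjusted p = 0.0138). Icam2, carried by endothelium, fell from 6.13 ± 0.645 to 4.203 ± 0.222 CPM, and Jam3, a junction molecule bound by ITGAM with ITGB2, fell from 4.15 ± 1.11 to 1.97 ± 0.578 CPM. F11r, which encodes JAM-A, was at 209 ± 9.81 and 189 ± 3.57 CPM and did not pass (edgeR adjusted p = 0.124).

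Vascular and stromal chains were lower in part. Itga8 (ENSMUSG00000026768, chromosome 2, 12106632 to 12301922) was the most abundant of them, at 182, 205 and 196 CPM in WT and at 104, 148 and 101 CPM in AXL KO. No AXL KO library reached the WT range, and replicate 2 came nearest. The gene fell 1.65-fold (log2 fold change -0.72 ± 0.14 SE, edgeR adjusted p = 0.00426). Itga2b, the platelet and megakaryocyte chain that pairs with ITGB3 to bind fibrinogen, was at 3.72, 3.59 and 4.12 CPM in WT and at 2.13, 2.50 and 1.64 CPM in AXL KO, a 1.82-fold fall with an edgeR adjusted p of 0.00879. The platelet receptor genes Gp9 and Gp1ba had 4 counts or fewer in every library, whereas Pf4 of the same list had 75 to 224. The 8 platelet markers summed to 4.75 to 10.1 CPM in WT and 2.86 to 6.03 in AXL KO. Only 2 of the 8 were tested, with log2 fold changes of -0.61 and -1.11. Of these 0 were called and 1 had an unadjusted p under 0.05 (edgeR), beside 18.3% of all tested genes called lower. The part of platelets in the fall of Itga2b was not tested. Itga5, the fibronectin receptor chain of endothelium and mesenchyme, was at 29.8, 29.5 and 23.9 CPM in WT and at 11.7, 23.8 and 14.6 CPM in AXL KO. Its highest AXL KO library, replicate 2, nearly met the lowest WT library, WT replicate 3. The 1.66-fold fall of Itga5 (edgeR adjusted p = 0.0347) lost its call with any library but AXL KO replicate 2 left out, at adjusted p-values of 0.0529 to 0.110. Its log2 fold change was then -0.68, -0.68 and -0.83 without WT replicates 1, 2 and 3, and -0.53 and -0.63 without AXL KO replicates 1 and 3.

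The other 6 genes of the class did not pass, and AXL KO replicate 2 again lay nearest to WT in several. Itga9, which binds tenascin-C and VCAM1, was at 14.6, 16.5 and 16.1 CPM in WT and at 11.1, 14.5 and 9.76 CPM in AXL KO (edgeR adjusted p = 0.0556). Itga7, a laminin receptor chain of muscle, was at 5.26, 3.89 and 4.33 CPM against 3.01, 3.99 and 1.77 CPM. Itga11, a collagen receptor chain of fibroblasts, was at 7.62, 5.55 and 4.57 CPM against 2.44, 6.30 and 1.84 CPM. In all 3 of these genes AXL KO replicate 2 was the highest of its group. Without AXL KO replicate 2 they were called lower, with log2 fold changes of -0.59, -0.91 and -1.46 and edgeR adjusted p-values of 0.00663, 0.024 and 0.00317. Then 6 of the 9 chains were lower, beside 18.8% of the genes tested in those 5 libraries. That library is singled out here for its values in these same genes. With any other library left out 2 of the 9 chains were called lower, beside 11.5% to 17.4% of tested genes. The weakest log2 fold changes with a library left out were -0.29, -0.35 and -0.42 for Itga9, Itga7 and Itga11. Itga9 was also called by DESeq2 (adjusted p = 0.0334) and limma-voom (0.0437). Itga1 and Itga10, both collagen receptor chains, had log2 fold changes of -0.20 and -0.23 with 95% intervals from -0.55 to 0.15 and from -0.72 to 0.25. Itgb3 was the one gene of the class with a positive value, at 49.8, 55.5 and 54.2 CPM in WT and at 51.7, 69.3 and 61.1 CPM in AXL KO, with overlapping groups (log2 fold change 0.19, 95% interval from -0.06 to 0.44).

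Vessel markers were lower in most cases, beside 18.3% of all tested genes called lower. For endothelium 9 of 10 markers fell, at a summed level of 320 to 359 CPM in WT and 187 to 250 CPM in AXL KO, among them Pecam1 with a log2 fold change of -0.65. Of 9 pericyte and smooth muscle markers 7 fell (550 to 624 against 337 to 424 CPM), led by level by Notch3 at -0.63 and Rgs5 at -1.004. Abcc9 of the same list went the other way, at a log2 fold change of 0.60 (edgeR adjusted p = 0.0513), and 1 marker of the list was called higher by DESeq2. Of 8 fibroblast markers 0 were called in edgeR, 0 had an unadjusted p under 0.05 and 0 were called by DESeq2. All 8 had negative log2 fold changes, at a median of -0.44. Their sums were 1125 to 2050 CPM in WT and 923 to 1461 CPM in AXL KO. The part of these cells in the fall of the integrin chains was not tested.

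Among the epithelial chains 2 beta partners of ITGAV rose and the laminin receptor chain Itga3 fell, and the hemidesmosome pair did not pass the test. Itgb6, which joins ITGAV into an epithelial receptor that activates latent TGF-beta, was at 9.98, 8.14 and 9.14 CPM in WT and at 15.2, 16.3 and 15.1 CPM in AXL KO. The groups were clearly apart, and the rise was 1.71-fold (log2 fold change 0.78 ± 0.11 SE, edgeR adjusted p = 0.00112). Itgb8, whose protein also joins ITGAV to activate TGF-beta, was at 77.9, 74.5 and 71.5 CPM against 89.8, 94.6 and 90.02 CPM. It was higher in every AXL KO library by a small margin, 1.23-fold (edgeR adjusted p = 0.0124), and missed the threshold without WT replicate 3 (log2 fold change 0.26, adjusted p = 0.059).

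Itga3, the chain that pairs with ITGB1 to bind laminins, fell in contrast. It was at 55.9, 65.1 and 56.6 CPM in WT and at 39.6, 42.2 and 42.6 CPM in AXL KO, 1.43-fold lower (log2 fold change -0.51 ± 0.08 SE, edgeR adjusted p = 0.002), and no library crossed between the groups. Itga6, of the hemidesmosome pair, was at 418, 517 and 517 CPM in WT and at 536, 549 and 557 CPM in AXL KO, narrowly without overlap, with a 95% interval of the log2 fold change from -0.03 to 0.39. Itgb4 was at 133, 215 and 163 CPM against 151, 126 and 146 CPM, overlapping, and without WT replicate 1 it was called lower (log2 fold change -0.43, edgeR adjusted p = 0.0305). With each library left out in turn the log2 fold change of Itgb4 ranged from -0.43 to -0.07, at edgeR adjusted p-values of 0.0305 to 0.651. Itga2, the collagen receptor chain of epithelium and platelets, had 40 to 88 counts and a 95% interval from -0.90 to 0.33. Of the exons of Itgb4, 7.66% overlap a gene on the other strand.

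Markers of luminal epithelium were lower, and so was Itga3 (log2 fold change -0.51), while Itgb6 and Itgb8 were higher. The 6 epithelial chains had 3 positive and 3 negative log2 fold changes. Of 6 tested luminal markers 5 fell, against 18.3% of all genes called lower, with a sum of 4771 to 5107 CPM in WT and 3330 to 3743 CPM in AXL KO, among them Epcam at a log2 fold change of -0.53. The part of luminal cells in the results of the epithelial chains was not tested. Of 6 tested hemidesmosome partner genes 1 was called, 16.7% against 37.4% of all genes, and this was Dst, which encodes dystonin, from 535 ± 128 to 772 ± 19.6 CPM (SD, n = 3; edgeR adjusted p = 0.0243). The laminin chain gene Lamb3 (log2 fold change -0.46) and the tetraspanin gene Cd151 (-0.22) did not pass, and Col17a1 had 4 counts or fewer in every library.

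Among the 3 widely expressed chains Itgav passed the test. Its level was 181, 206 and 187 CPM in WT and 121, 148 and 125 CPM in AXL KO, 1.46-fold lower (log2 fold change -0.54 ± 0.10 SE, edgeR adjusted p = 0.00268), with the 2 groups apart. ITGAV is the only alpha chain of ITGB5, ITGB6 and ITGB8, so the gene of the shared partner fell in the libraries in which Itgb6 and Itgb8 rose. Itgb5 was at 207, 213 and 186 CPM against 165, 190 and 189 CPM, with a 95% interval of the log2 fold change from -0.35 to 0.04. Itgb1 was at 690, 662 and 680 CPM against 600, 712 and 635 CPM, with an interval from -0.25 to 0.12, which leaves room for a small change in either direction.

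**Figure D4:**
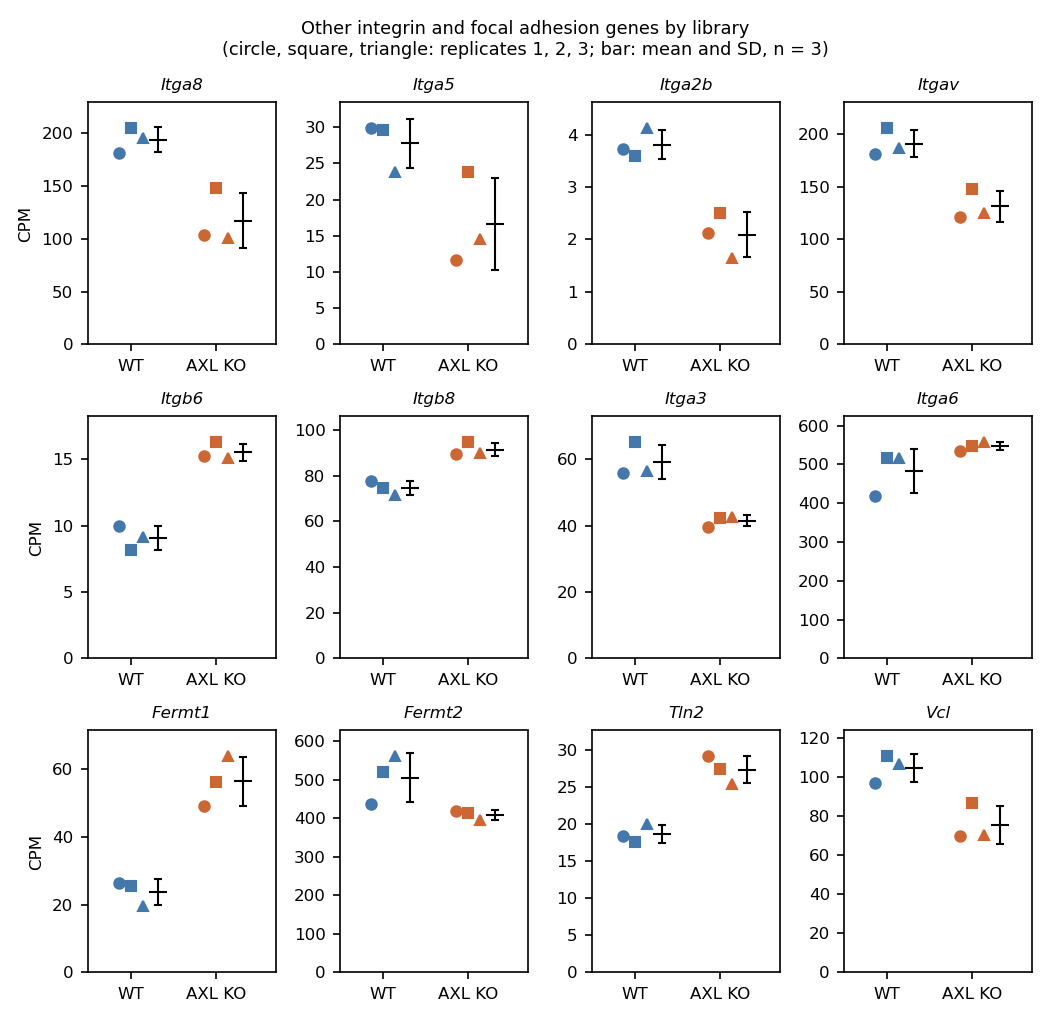
Level of 12 further integrin and focal adhesion genes in each library, in CPM from 0; symbols are replicates 1 to 3 and the bar gives the mean and SD. Fermt1, Tln2, Itgb6 and Itgb8 are higher in all 3 AXL KO libraries, and Itga8, Itgav, Itga3 and Vcl are lower in all 3.

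In the focal adhesion core, of the 3 kindlin genes Fermt1 rose, Fermt2 fell and Fermt3 did not pass the test. Fermt1 (ENSMUSG00000027356, chromosome 2, 132904389 to 132945906) encodes kindlin-1 of epithelial cells, which activates integrins. It was at 26.4, 25.5 and 19.4 CPM in WT and at 49.1, 56.1 and 63.6 CPM in AXL KO. All 3 AXL KO libraries were well above WT, with a 2.37-fold rise (log2 fold change 1.24 ± 0.14 SE, edgeR adjusted p = 0.000262), and the call was kept with each library left out. Fermt2, which encodes the widespread kindlin-2, was far more abundant, at 437, 520 and 561 CPM in WT and at 418, 413 and 395 CPM in AXL KO. It was 1.24-fold lower (edgeR adjusted p = 0.0335), a call that ended without WT replicate 2 or 3 or without any 1 of the AXL KO libraries, at log2 fold changes of -0.32 to -0.23 and adjusted p-values of 0.0582 to 0.133. Fermt3, which encodes kindlin-3 of blood cells, was at 11.7, 9.14 and 8.76 CPM against 14.2, 14.6 and 10.8 CPM, and the groups overlapped. Its log2 fold change of 0.42 did not pass (edgeR adjusted p = 0.0656), but it was 0.56 (0.0241) when WT replicate 1 was left out, and 0.55 (0.0372) when AXL KO replicate 3 was. With each library left out in turn it ranged from 0.35 to 0.56, at edgeR adjusted p-values of 0.0241 to 0.196.

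Of the talin genes, whose proteins link the beta tail to actin, Tln2 rose. Tln2 was at 18.4, 17.6 and 20.1 CPM in WT and at 29.2, 27.5 and 25.5 CPM in AXL KO, 1.46-fold higher with groups apart (edgeR adjusted p = 0.00237). Tln1, per exon length the more abundant of the 2 at 15.3 against 1.02 CPM per kb in WT, was at 129, 173 and 146 CPM against 170, 162 and 182 CPM. Its groups overlapped (log2 fold change 0.20, 95% interval from -0.05 to 0.44), though without WT replicate 2 it was called higher at 0.32 (edgeR adjusted p = 0.0258). With each library left out in turn its log2 fold change ranged from 0.10 to 0.32, at edgeR adjusted p-values of 0.0258 to 0.438.

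Vcl and Ptk2 fell. Vcl, which encodes vinculin, a protein that reinforces talin's link to actin under load, was at 96.8, 111 and 106 CPM in WT and at 69.6, 86.5 and 70.2 CPM in AXL KO, 1.39-fold lower (edgeR adjusted p = 0.0073). Ptk2, which encodes the kinase FAK, was at 156, 153 and 173 CPM against 125, 129 and 123 CPM, 1.27-fold lower (edgeR adjusted p = 0.00682). In both genes every AXL KO library was below every WT library. Pxn, which encodes the adaptor paxillin, had a log2 fold change of -0.18 (95% interval from -0.38 to 0.02), and without WT replicate 1 one of -0.27 with an edgeR adjusted p of 0.017. With each library left out in turn that of Pxn ranged from -0.27 to -0.12, at edgeR adjusted p-values of 0.017 to 0.331. Ilk, which encodes integrin-linked kinase, was at 90.3, 86.4 and 85.6 CPM against 78.1, 77.1 and 78.2 CPM, apart but not called (edgeR adjusted p = 0.0796). Of the exons of Ilk 76.7% overlap Taf10 on the other strand, and of those of Vcl 25.5% overlap Ap3m1. Whether reads there were counted by strand is not given in the sources used here.

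Other focal adhesion genes went in both directions. Calls were made for 46.7% of the 30 tested, against 37.4% of all genes, 5 up and 9 down, and the median of their log2 fold changes was -0.10. By smallest p they were led by Fyn, a Src-family kinase, which fell from 45.5 ± 1.56 to 26.9 ± 2.06 CPM (SD, n = 3 per group; edgeR adjusted p = 0.000258). Nedd9, a docking protein that FAK binds, rose from 64.1 ± 2.35 to 88.8 ± 0.977 CPM. Of the tensin genes, whose proteins bind beta tails and actin, Tns3 rose 1.65-fold and Tns2 fell 1.703-fold (edgeR adjusted p = 0.00153 and 0.00174).

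Of 16 regulators of integrin activity 43.8% were called, against 37.4% of all genes, 6 down and 1 up, at a median of -0.22 on the log2 scale. Itgb1bp1 encodes ICAP-1, which binds the ITGB1 tail and holds it inactive, and fell 1.87-fold from 19.97 ± 1.28 to 10.7 ± 1.16 CPM (SD, n = 3; edgeR adjusted p = 0.000533). Slc3a2, the heavy chain of CD98, which binds beta chains, fell 1.48-fold. The tetraspanin gene Cd81 fell 1.45-fold and Rap1b, a small GTPase that drives talin to integrins, fell 1.28-fold, with edgeR adjusted p-values of 0.00236, 0.000956 and 0.0131 for these 3 genes.

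Of 14 matrix ligands 42.9% were called, near the 37.4% of all genes, 5 down and 1 up, at a median of -0.49 on the log2 scale. Ltbp1, which stores latent TGF-beta for activation by ITGAV receptors, fell from 27.9 ± 4.04 to 13.0 ± 1.28 CPM (SD, n = 3; edgeR adjusted p = 0.000344). The basement membrane genes Col4a1 and Lamc1 fell 1.88- and 1.42-fold. Thbs1, which encodes the adhesive protein thrombospondin-1, rose 1.49-fold, from 882 ± 113 to 1312 ± 92.5 CPM. Adjusted p-values of these 3 genes in edgeR were 0.00178, 0.00677 and 0.00307.

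Ratios of 2 genes within a library do not depend on library scaling, and 6 such ratios of partners or relatives were compared. The mean log2 ratio of Fermt1 to Fermt2 counts was -4.41 ± 0.41 (SD, n = 3) in WT and -2.87 ± 0.23 in AXL KO, so Fermt1 gained 2.92-fold on Fermt2. Itgb6 gained 2.50-fold on Itgav, from -4.40 ± 0.24 to -3.07 ± 0.10, and Itgae gained 3.58-fold on Itgb7, from 0.09 ± 0.71 to 1.92 ± 0.26. In these 3 ratios every AXL KO library lay above every WT library. Itgal gained 1.74-fold on Itgb2, but AXL KO replicate 2, at -1.60, was close to the WT libraries, which lay between -1.996 and -1.68. The ratio of Itga6 to Itgb4 also rose, 1.35-fold, without overlap, while that of Itgam to Itgb2 differed by -0.21 and overlapped narrowly. Each of the 5 ratios without overlap had an exact two-sided permutation p of 0.1, the smallest that 3 against 3 libraries allow, and 0.12 after adjustment over the 6. The ratio of Itgam to Itgb2 had an exact permutation p of 0.2. The exact permutation test therefore cannot bring a single ratio below 0.05 with these libraries.

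**Figure D5:**
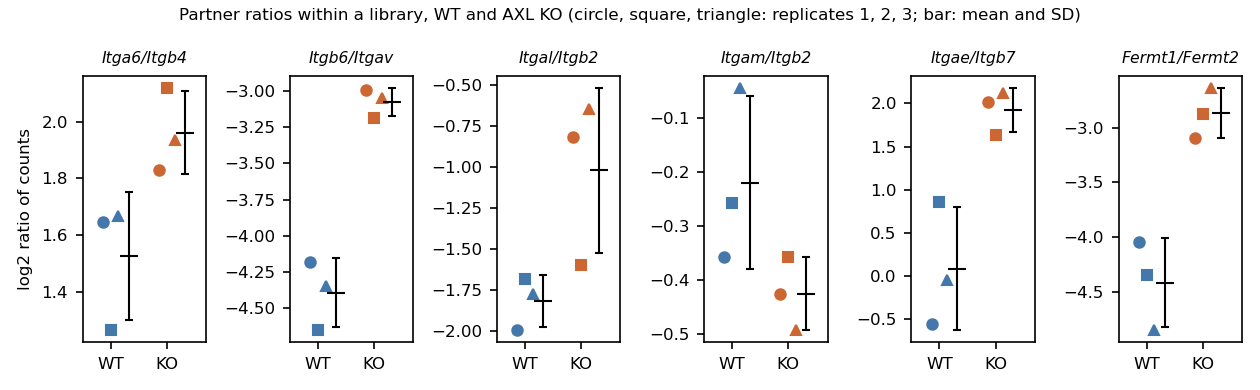
Log2 ratio of the counts of 2 genes in each library, for 6 pairs in WT and AXL KO grafts; symbols are replicates 1 to 3, the bar gives the mean and SD, and each panel has its own axis. Fermt1 over Fermt2, Itgb6 over Itgav and Itgae over Itgb7 differ between the group means by more than 1 log2 unit.

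The authors' deposited table gave all 35 genes the same direction as the fit described here. At an adjusted p under 0.05, the authors' deposited table had 10 of the genes higher and 9 lower in AXL KO. These included all 17 calls given above, together with Itgb2 (adjusted p = 0.035 in the authors' deposited table) and Itga9 (0.0341 in the authors' deposited table).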

How the data were processed

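RNA-seq of 6 mouse tumour grafts was analysed, 3 WT and 3 AXL KO, grouped by sample title. The submitters' processing notes name CASAVA 1.8, TopHat2 2.0.10, HTSeq 0.5.3, DESeq2 1.4.5 and the build GRCm38. Their settings, strand among them, are not stated in any source used here. The deposited per-library files hold raw counts, from which 5 rows that name no gene were left out. Those rows held multiply aligned reads, 27.3% to 29.0% of all lines in WT and 25.7% to 26.9% in AXL KO. Reads in no gene were 4.41% to 5.37% in WT and 5.55% to 6.88% in AXL KO. Ambiguous reads were 0.993% to 1.09% in WT and 0.717% to 0.896% in AXL KO. None of these shares overlapped between the groups, and the part of this difference in the calls was not tested. The authors' table holds a signal, which is the count divided by a size factor, the authors' log2 fold changes with SE, a Wald score and p-values. Its log2 fold change was deposited as WT over AXL KO and was turned round here.

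Counts were filtered with filterByExpr (minimum count 10, minimum total 15), which left 14850 of 21716 genes with a count, scaled with TMM (factors 0.980 to 1.02) and tested on all genes by quasi-likelihood in edgeR 4.0.16 (R 4.3.3), with group as the only term and 4 residual degrees of freedom. Benjamini-Hochberg adjustment covered all tested genes. Standard errors come from the F statistic. Replicates differed beyond sampling noise (chi-square per gene 11.7 to 31.3 within groups), so all 6 were used. Ratios used a pseudocount of 0.5. Steps were tested on simulated data. Gene models are from GENCODE M21 (GRCm38) and promoters from RefSeq.

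The genes, the classes and the lists were chosen with earlier results of these data known. All 35 genes could be named, and of each pathway list up to 4 genes with the smallest p. 1 gene of these lists is not reported here. Cell type markers were given as counts with some of the most abundant named. Krt5, Krt14, Krt19, Acta2, Coro1a, Ly6g, Gp9, Gp1ba, Pf4, Abcc9 and Col17a1 were named after their values were seen. Alternatives were DESeq2 size factors, DESeq2 1.42.0, limma-voom 3.58.1, no filter, a stricter filter (mean log2 CPM of at least 2), leaving out each library, a replicate block, a threshold of 0.01 on adjusted p, a minimum of 2-fold and a pseudocount of 1.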

Additional observations from a re-analysis of the deposited data

How the results depend on the processing

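Under DESeq2 size factors, DESeq2, limma-voom and no filter, no call among the 35 genes was lost. With each library left out, the 35 genes held 7 to 10 higher and 6 to 10 lower calls. By class and direction the calls then ranged over 1 to 2 higher and 1 to 2 lower (epithelial), 2 to 6 lower (vascular and stromal), 4 to 5 higher (leukocyte), 1 lower (widely expressed), and 2 to 3 higher and 2 to 4 lower (focal adhesion core). Class medians ranged from -0.14 to 0.08, -0.91 to -0.35, 0.71 to 1.02, -0.21 to -0.09 and -0.17 to -0.12 in that order. The epithelial median was -0.05 with all libraries, 0.081 without WT replicate 2 and 0.17 under the stricter filter (mean log2 CPM of at least 2), which left out Itga2, so this class has no stable direction. The stricter filter left out further low genes and put the leukocyte median at 0.68. Over all genes, 2000 to 2846 were higher and 1733 to 2828 lower with a library left out, the 1733 without AXL KO replicate 3, and 24.8% to 36.9% of tested genes were called. A threshold of 0.01 gave 1610 and 1464 for all genes and 1 higher epithelial chain. With a 2-fold minimum they were 764 and 716 for all genes, and 4 higher and 0 lower among the 35, of which 3 leukocyte, 1 focal adhesion and 0 epithelial genes were higher.

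Deviations of same-numbered libraries from their group means had correlations of -0.06, -0.13 and 0.09, beside -0.21 to 0.22 for libraries of different number. These values show no pairing by replicate number, but with 3 libraries per group they cannot exclude one. With a replicate block 2458 genes were higher and 2373 lower, Itga4 (log2 fold change 0.51, edgeR adjusted p = 0.053) and Fermt2 (-0.30, 0.068) missed the threshold, and Itga9 (-0.43, 0.0496) and Fermt3 (0.42, 0.0493) passed it. Depth limits Itgad, Itga10 and Itga2 most, Itgae and Itgb7 in WT, and Itga2b in AXL KO, each at under 100 counts in those libraries. Itga7 and Itga11 were also under 100 counts in AXL KO replicates 1 and 3.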
